A study of Mus musculus with 7 samples.

Results

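Cells rich in Prg4 and Alox15 were described here among the cells of mouse hearts profiled by droplet single-cell RNA sequencing. A cell was counted as a member where its Prg4 and Alox15 UMIs (unique transcript counts) summed to at least 3, with at least 1 UMI of Csf1r or Adgre1, at most 5 of Col1a1 and 0 of Cd79a. By this rule 507 of 40158 kept cells in 7 libraries were members, and 430 of them came from 1 library, WT 8 week sham. The rule thus used the counts of these 6 genes, and their levels in the members are a description only. The hearts came from mice labelled MerTK KO, with the receptor gene Mertk deleted, or from C57BL6/J mice (WT), at P1 or at 8 weeks of age, after surgery that either infarcted the heart (MI, myocardial infarction) or was a sham. The 6 groups were MerTK KO P1 MI, MerTK KO P1 sham, WT P1 MI with 2 libraries, WT P1 sham, WT 8 week MI and WT 8 week sham. No MerTK KO library at 8 weeks was analysed here. In all groups hearts were flushed and broken up with collagenase and DNase, red cells and dead cells were removed, and CD45+ leukocytes were enriched and mixed again with CD45- cells at 2 to 1. The protocol text, the same for every library, speaks of excised infarcted tissue, also for sham hearts. The labels do not say how many hearts made a library, how long after surgery they were taken, which part of Mertk was deleted, or whether the pericardium stayed on the heart.

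Macrophages of the serous cavities, that is the peritoneal, pleural and pericardial spaces, differ from macrophages inside tissues. Large cavity macrophages depend on the transcription factor GATA6, whose expression is maintained by retinoic acid, and they carry coagulation factor V, P-selectin and ICAM2. Prg4 encodes proteoglycan 4 (lubricin), a mucin-like lubricant of joints and serous surfaces. Alox15 encodes a lipoxygenase that oxygenates arachidonic and linoleic acid and is known from resident peritoneal macrophages of the mouse. Macrophages inside the heart include a resident population marked by Lyve1, Folr2, Cd163 and Mrc1, and monocyte-derived cells with Ccr2 and MHC class II.

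The libraries held 7707724 to 130847843 UMIs over 1035 to 16379 barcodes, where the labels give a target of 5000 cells per library. The median UMI count of kept cells was lowest in WT 8 week MI, at 2152, against 4167 in WT 8 week sham, and highest in WT P1 MI replicate 1, at 11408. Pairs of libraries shared 0 to 41 barcodes, at most 0.613% of the smaller library, and 1 WT 8 week sham member had a barcode found in another library. Mertk transcripts were counted at 47.7 CPM (counts scaled to a total of 1000000 UMIs) in MerTK KO P1 sham macrophages and at 50.1 CPM in WT P1 sham macrophages, which checks nothing, since a 3' tag need not lie in the deleted part. Each group but WT P1 MI had 1 library. All differences below are therefore descriptions with no test and no replicate check, and intervals cover counting error only.

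In WT 8 week sham the members made up 2.81% of the 15312 kept cells (exact binomial 95% interval 2.55 to 3.08). Another 661 cells of that library passed the same Csf1r, Adgre1, Col1a1 and Cd79a limits, were no members and had at least 10 UMIs of C1qa, C1qb and C1qc together. They are called the other C1q-positive macrophages below, and members were 39.4% of both kinds added up (36.5 to 42.4). Elsewhere members were few. They were 3 of 6607 cells in MerTK KO P1 MI (0.0454%) and 15 of 2611 in MerTK KO P1 sham (0.574%). They were 7 of 773 cells (0.906%) and 4 of 10135 cells (0.0395%) in the WT P1 MI replicates 1 and 2, a mean of 0.473% ± 0.612 (SD, n = 2), and 2 of 1590 cells in WT P1 sham (0.126%). The WT 8 week MI library held 46 members among 3130 cells, or 1.47% (1.08 to 1.96), and 3.16% of its macrophages. A sum of at least 3 UMIs is easier to reach in a deep cell, and the members were deeper than the other C1q-positive macrophages, with a median of 15284.5 UMIs against 13356 in WT 8 week sham. After every cell was thinned to 2000 UMIs, with 1403 shallower cells left out in WT 8 week MI and 2089 in WT 8 week sham, members were 1.45% of WT 8 week MI cells (0.939 to 2.13) and 1.60% of WT 8 week sham cells (1.39 to 1.82). The whole rule was applied again to the thinned counts, so its limits on Col1a1 and Cd79a were easier to pass. It took in 25 cells in WT 8 week MI and 211 in WT 8 week sham, of which 24 and 178 were members at full depth. By this count the shares of all cells in the 2 libraries lay within each other's intervals. The shares of macrophages, sets taken at full depth, counted only the 24 and 178. They were still apart, at 2.37% of 1012 cells in WT 8 week MI (1.53 to 3.51) and 16.5% of 1078 in WT 8 week sham (14.3 to 18.9). The MI library held more other macrophages among its cells, 1410 of 3130 against 661 of 15312 in the sham library. The thinned share in WT P1 sham was 0 of 1426 cells, which allows up to 0.258%, and the WT P1 MI replicates remained far apart at 0.732% and 0.0450%.

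**Figure D1:**
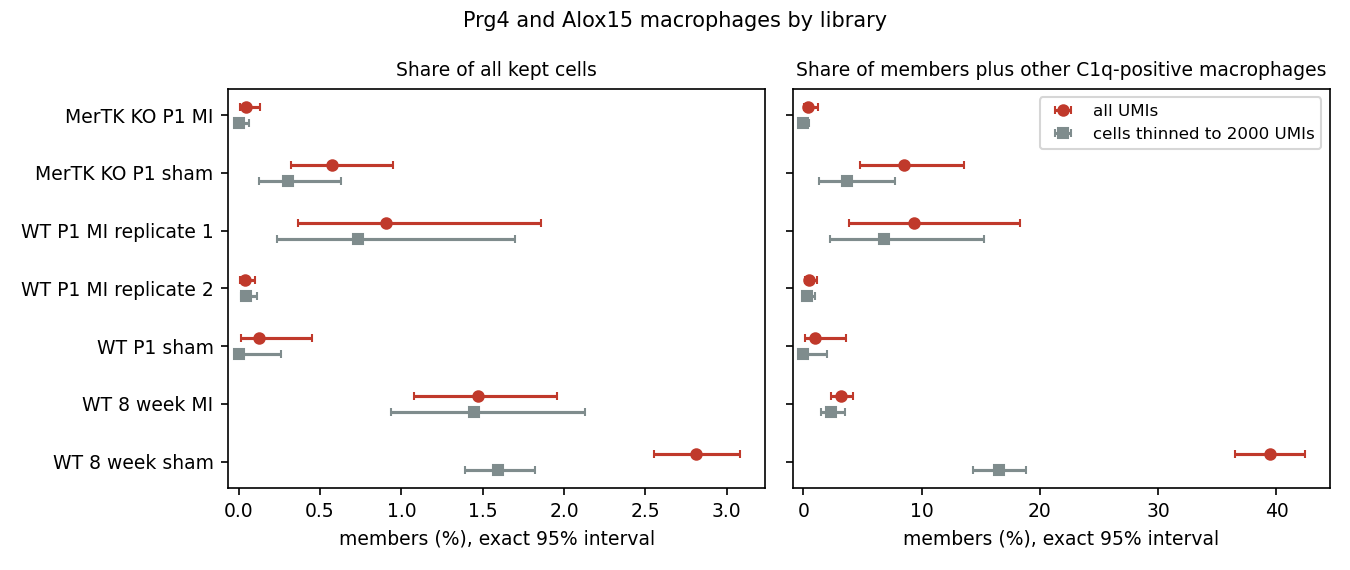
Share of members among kept cells (left, %) and among members plus other C1q-positive macrophages (right, %) in each of the 7 libraries, with all UMIs (circles) and after thinning each cell to 2000 UMIs (squares); bars are exact binomial 95% intervals for counting error. WT 8 week sham has the highest share, 2.81% of cells and 39.4% of macrophages, and thinning brings these to 1.60% and 16.5%. Squares on the left count every cell that passed the rule after thinning. Squares on the right count only those that were also members at full depth.

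The members of WT 8 week sham were unequal in the genes that chose them. A member had 3 to 352 UMIs of Prg4 and Alox15 together, with a median of 19. Prg4 alone had a median of 14 UMIs (0 to 350) and Alox15 of 2 (0 to 99). Both transcripts were seen in 250 members (58.1%), Prg4 without Alox15 in 165 (38.4%) and Alox15 without Prg4 in 15 (3.49%). The summed members had 1680.2 CPM of Prg4, against 12.8 CPM in the other C1q-positive macrophages, and 572 CPM of Alox15 against 3.03 CPM. T cells, which should lack both, had a Prg4 UMI in 2.11% of cells and an Alox15 UMI in 0.541% at a median of 4976 UMIs, against 96.5% and 61.6% of the members and 15.3% and 3.78% of the other C1q-positive macrophages. Of the members, 383 (89.1%) also reached the 10 C1q UMIs that were not asked of them. The macrophage receptor gene Csf1r stood at 435 CPM in members and 528 CPM in the other C1q-positive macrophages, and Adgre1, which encodes F4/80, at 352 and 152 CPM. Prg4 was counted in other cells too, at 233 CPM in 66 cells with mesothelial transcripts and 58.7 CPM in fibroblasts, whereas Alox15 was at 4.35 and 0.690 CPM in these.

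The rule did not use Gata6. The members were chosen with earlier results of these data known, however, so the Gata6 level describes them and is no independent check of the label. The members had 375 Gata6 UMIs (51.4 CPM) and the other C1q-positive macrophages 44 (4.60 CPM), a log2 ratio of 3.47 (95% counting interval 3.03 to 3.97). A Gata6 UMI was seen in 187 of 430 members (43.5%) and in 37 of 661 other macrophages (5.60%). T cells had one in 2.00% at a median of 4976 UMIs, and after thinning to 2000 UMIs the shares were 9.86% of members and 1.69% of other macrophages. Gata6 is also a gene of the heart's stroma, and 777 of 1317 fibroblasts held it, at 104.6 CPM. Set against all 1021 cells with 10 C1q UMIs that were no members, without the other limits, the log2 ratio of Gata6 was 1.94. Cells rich in Prg4 and Alox15 that failed those other limits were not kept out of the 1021, and what they add was not tested.

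A list of 30 genes known from large cavity macrophages was read next. It too was chosen with earlier results of these data known, so its counts are a description. Of 11237 genes tested in members against the other C1q-positive macrophages, 387 (3.44%) were at least 2-fold higher and 289 (2.57%) at least 2-fold lower, with a median log2 ratio of 0.02. Of the 30 cavity genes, 21 were at least 2-fold higher and 2 lower, with a median log2 ratio of 1.62. Serpinb2, which encodes plasminogen activator inhibitor 2, had the largest ratio of the list, with 559 CPM in members and 11.5 CPM in other macrophages (log2 5.60, 5.33 to 5.89). A Serpinb2 UMI was present in 37.8% of members and 1.38% of other macrophages at 2000 UMIs per cell, and in 65.7% and 8.28% of them without thinning. At full depth most members carried it. Against the 1021 cells chosen by C1q alone its log2 ratio was 2.73, still over 2-fold. Ltbp1, the latent TGF-beta binding protein 1, had 49.4 CPM in members and 1.25 CPM in other macrophages, and Tgfb2, one of the TGF-beta ligands, 29.1 and 2.51 CPM. Garnl3 had 49.7 CPM in members and 1.67 CPM in other macrophages. Cd5l, a secreted scavenger receptor protein of macrophages, had 428 and 27.1 CPM. Ltbp1, Garnl3 and Tgfb2 were thus low in members and nearly not counted in the other macrophages, while Cd5l was counted in both.

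Saa3, an acute-phase serum amyloid A, had 7231 CPM in members and 582 CPM in other macrophages (log2 3.64). Slpi, an inhibitor of neutrophil proteases, had 3513 CPM in members and 299 CPM in other macrophages (log2 3.55). Wfdc21, which shares the WAP domain of Slpi, had 168 and 19.1 CPM, and Lbp, the lipopolysaccharide-binding protein, 71.7 and 11.8 CPM. Each of these 4 was also higher in members under every alternative run. Fn1, the fibronectin gene, was the most abundant cavity gene, with 9414 CPM in members and 5848 CPM in other macrophages, a log2 ratio of 0.69 that stayed under 2-fold.

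Genes of coagulation and of adhesion to platelets and vessels formed another group. F5, coagulation factor V, had 323 CPM in members and 38.5 CPM in other macrophages (log2 3.07), and Selp, P-selectin, 137 and 12.3 CPM (log2 3.47). The 2 genes are neighbours on mouse chromosome 1, Selp at chr1:164115264-164150026 and F5 at chr1:164151838-164220277, both on the + strand of GRCm38, with 1811 bases and no protein-coding gene between them. F10, factor X, had 320.3 CPM in members and 150.3 CPM in other macrophages, and F7, factor VII, 128 and 61.9 CPM. F3, tissue factor, had 341 UMIs (46.8 CPM) in members and 191 UMIs in other macrophages. In all, 7 of 17 tested genes of coagulation and fibrinolysis were at least 2-fold higher and 3 lower. The lower ones were F13a1, the factor XIII A chain, with 17.4 CPM in members and 90.6 CPM in other macrophages, Plau, the urokinase gene, with 2 and 38 UMIs, and F2rl2, with 8 and 25 UMIs. The F7, F10 and F3 ratios lay close to 2-fold and were under it in some alternatives, with lowest log2 values of 0.88, 0.98 and 0.88. Icam2, an adhesion molecule used to sort large peritoneal macrophages, had 507 CPM in members and 77.2 CPM in other macrophages (log2 2.71), and Itga6, integrin alpha 6, 391 and 98.6 CPM. Together with Selp and Itgb7 they were the 4 of 20 adhesion genes at least 2-fold higher, and 0 were lower. Of the platelet markers, Gp1ba, Gp1bb and Tubb1 were at 0 UMIs in both cell sets, and Ppbp had 4 UMIs in each, while Pf4, which macrophages express too, made up most of the list's 867 CPM in members and 419 CPM in other macrophages.

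Enzymes and receptors of lipid mediators showed 1 large difference beside Alox15. Ptgis, prostacyclin synthase, had 170.5 CPM in members and 8.78 CPM in other macrophages (log2 4.27, 3.96 to 4.62). It was the only one of 20 tested arachidonate enzymes at least 2-fold higher, while Hpgds, the haematopoietic prostaglandin D synthase, was lower, with 3.98 CPM against 16.5 CPM. Ptgs1, cyclooxygenase 1, had 219.6 CPM in members and 140.3 CPM in other macrophages, Alox5 80.2 and 56.7 CPM, and Tbxas1, thromboxane synthase, 133 and 132 CPM. These stayed within 2-fold. None of 11 tested lipid mediator receptors was 2-fold apart.

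**Figure D2:**
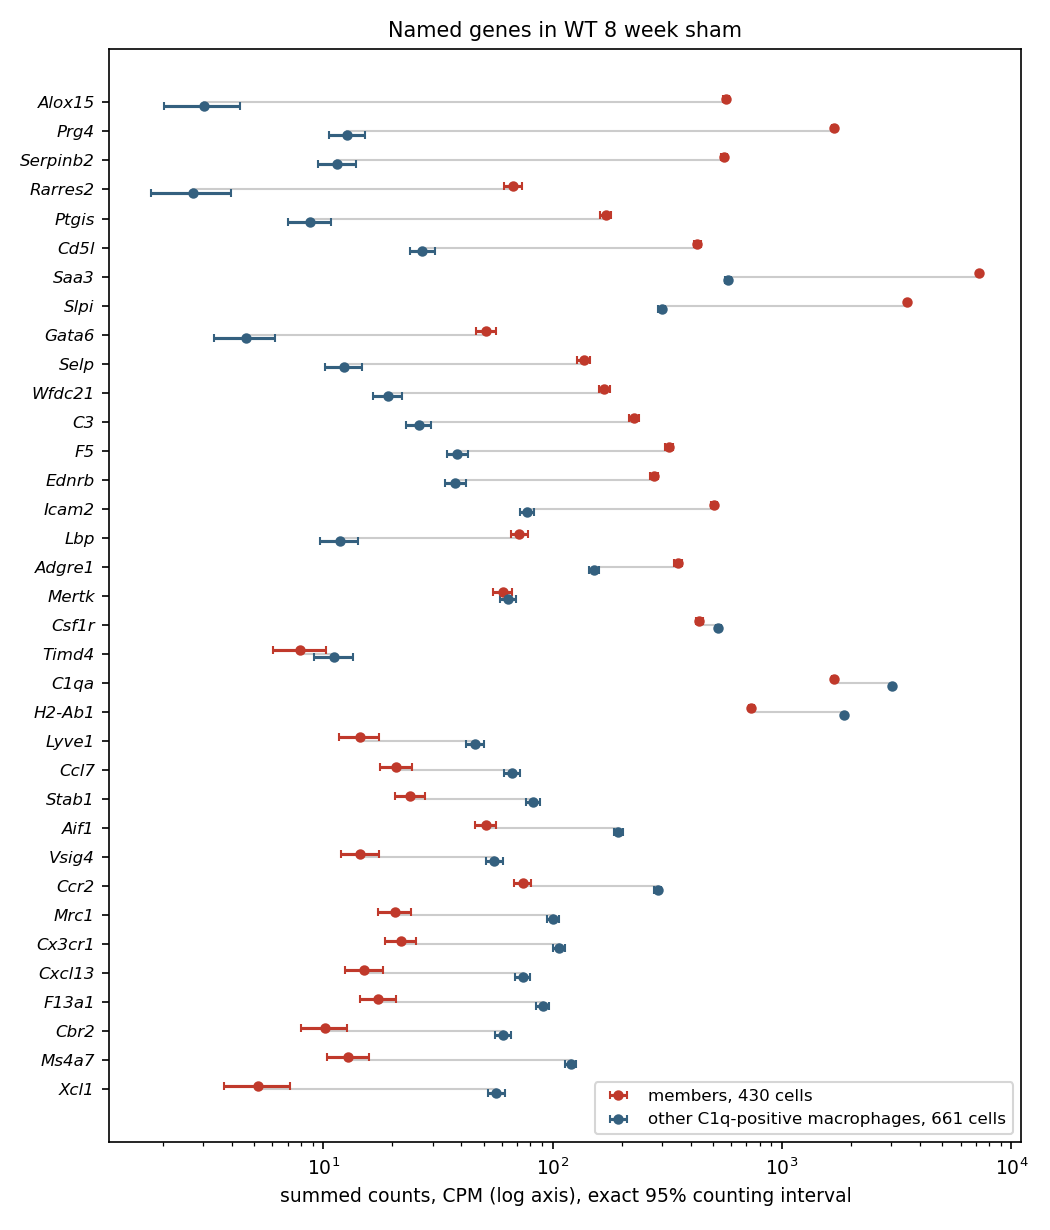
CPM of summed counts (log axis) of the 11 set genes and the genes with the largest and smallest ratios in 430 members and 661 other C1q-positive macrophages of WT 8 week sham, ordered by ratio; bars are exact 95% counting intervals. Serpinb2 (559 and 11.5 CPM) lies far apart near the top and Xcl1 (5.21 and 56.7 CPM) at the bottom, while Mertk, Csf1r and Timd4 lie close together.

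Not every cavity gene was higher. Timd4, a phosphatidylserine receptor of resident macrophages, had 7.96 CPM in members and 11.2 CPM in other macrophages (log2 -0.49). Vsig4, a complement receptor, had 14.5 and 55.7 CPM, and Cxcl13, a B cell attractant, 15.1 and 74.0 CPM. Single cells weighed on both of the lower genes: 1 member held 31.1% of the members' Vsig4 UMIs, and 1 other macrophage 38.4% of that set's Cxcl13. Of the other transcription factors on a list of 27, Rarb, a retinoic acid receptor, was at least 2-fold higher beside Gata6, with 15.8 CPM in members and 6.69 CPM in other macrophages, and Bhlhe41 was lower (6.72 and 16.2 CPM). Bhlhe40, Cebpb and Klf2, all known from peritoneal macrophages, were within 2-fold, at log2 0.15, 0.28 and 0.84. Gata6 and most but not all of the listed cavity genes were thus higher in members at 8 weeks. This describes the label, cavity-type, and is no independent check of it.

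The promoters of the leading genes were read to show what stands beside these values. RefSeq windows of 250 bases before to 50 after a gene's start, on GRCm38.p6, were at hand for 8 of the 14 genes with the largest ratios. They were searched on both strands for the GATA core AGATAA, with T also allowed as its first letter and G as its last. The 4 promoters below held it, with the matches in capitals, each printed on its gene's strand. They are Cd5l (chr3:87357631-87357930, + strand), Saa3 (chr7:46715627-46715926, - strand), Serpinb2 (chr1:107511260-107511559, + strand) and Slpi (chr2:164356458-164356757, - strand).
Cd5l: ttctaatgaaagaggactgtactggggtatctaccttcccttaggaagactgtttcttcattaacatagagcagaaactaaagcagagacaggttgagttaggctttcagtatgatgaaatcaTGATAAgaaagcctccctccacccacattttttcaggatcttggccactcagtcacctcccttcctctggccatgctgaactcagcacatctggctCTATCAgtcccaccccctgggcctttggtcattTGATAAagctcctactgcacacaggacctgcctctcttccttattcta
Saa3: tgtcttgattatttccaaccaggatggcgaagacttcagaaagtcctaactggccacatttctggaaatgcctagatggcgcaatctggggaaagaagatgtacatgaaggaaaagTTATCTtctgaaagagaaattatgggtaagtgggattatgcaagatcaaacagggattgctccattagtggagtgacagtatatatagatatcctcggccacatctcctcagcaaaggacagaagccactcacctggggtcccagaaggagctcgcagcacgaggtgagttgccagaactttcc
Serpinb2: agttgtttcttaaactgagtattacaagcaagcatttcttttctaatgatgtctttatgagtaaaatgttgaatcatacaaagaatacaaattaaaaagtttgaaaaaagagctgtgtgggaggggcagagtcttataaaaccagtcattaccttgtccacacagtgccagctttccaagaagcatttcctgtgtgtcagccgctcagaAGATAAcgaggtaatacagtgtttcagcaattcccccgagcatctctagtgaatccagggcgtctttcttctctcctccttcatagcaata
Slpi: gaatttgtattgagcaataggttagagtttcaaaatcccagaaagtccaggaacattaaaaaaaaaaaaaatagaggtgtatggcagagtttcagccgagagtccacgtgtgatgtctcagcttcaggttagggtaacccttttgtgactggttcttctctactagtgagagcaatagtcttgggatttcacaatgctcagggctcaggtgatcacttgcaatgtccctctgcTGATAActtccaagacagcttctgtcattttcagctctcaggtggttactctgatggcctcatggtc
Cd5l had 3 matches, of which 1 is on the opposite strand and shows as CTATCA, Saa3 had 1 on the opposite strand (TTATCT), and Serpinb2 and Slpi had 1 each. The windows of C3, Ednrb, F5, Selp and an earlier start of Serpinb2 held none. The same motif occurs in 9778 of all 32851 promoter windows, or 29.8%, so 4 of 8 genes is a description of these letters and shows no binding.

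Most listed genes of the heart's resident macrophages were lower in members. Of 19 tested resident genes, 11 were at least 2-fold lower and 4 higher. The summed level of the list was not lower, at 2740 CPM in members and 2624 CPM in other macrophages. Lyve1, a hyaluronan receptor, had 14.4 CPM in members and 46.0 CPM in other macrophages, and Cd163, a haemoglobin scavenger receptor, 6.31 and 25.5 CPM. Mrc1, the mannose receptor, had 20.6 and 101 CPM, and Cbr2, a carbonyl reductase, 10.2 and 61.0 CPM. Cx3cr1, the fractalkine receptor, had 21.8 CPM in members and 107 CPM in other macrophages. Stab1, a scavenger receptor, had 24.0 CPM in members and 82.6 CPM in other macrophages. Outside the resident list, Ms4a7 had 12.9 and 119.8 CPM, and Aif1, which encodes IBA1, 51.2 and 194 CPM. All of these genes were at least 2-fold lower under every alternative. In 414 cells of the library with Ly6c2 and Ccr2 transcripts and under 10 C1q UMIs, Aif1 and Cx3cr1 had 201 and 103 CPM. Aif1 and Cx3cr1 thus did not mark resident macrophages alone. The 4 resident genes that were higher were Pf4, C4b, Ccl24 and Fcna. Pf4, platelet factor 4, had 861 CPM in members and 413 CPM in other macrophages, but the direction turned (log2 -0.30) where only the 143 other macrophages with at least 3 UMIs of Lyve1 and Folr2 were compared. Against those 143 none of the 4 was 2-fold higher, with 384 CPM of Fcna in members and 346 CPM in them, 376 and 212 CPM of C4b, and 158 and 103 CPM of Ccl24. Of 15 alternatives, Ccl24 was 2-fold higher in 5, Pf4 in 10, C4b in 12 and Fcna in 14. C4b shares much sequence with C4a, so its count is uncertain.

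MHC class II transcripts were lower as a group. Of 12 genes, 5 were at least 2-fold lower, 0 were higher, and their summed level was 6287 CPM in members and 14344 CPM in other macrophages. H2-Ab1 had 736 CPM in members and 1872 CPM in other macrophages, and Cd74, the invariant chain, 1966 and 5376 CPM. At 2000 UMIs per cell, 22.3% of members and 42.3% of other macrophages had an H2-Ab1 UMI, and 54.5% and 65.8% without thinning. The difference depended on which macrophages stood on the other side. The 143 other macrophages with Lyve1 and Folr2 had 967 CPM of H2-Ab1, the remaining 518 had 2146 CPM, and against the 143 alone 0 of the 12 genes was 2-fold apart, whereas 9 were lower with the highest doublet scores removed. Ccr2, the monocyte chemokine receptor, had 74.2 CPM in members and 287 CPM in other macrophages. Of the monocyte list, Ccr2 and Ly6c2 were lower, and Hp, haptoglobin (305 and 115 CPM), and Chil3 (108 and 21.5 CPM) were higher. Chil3 shares much sequence with Chil4, so its count is uncertain. C1qa had 1682 CPM in members and 3023 CPM in other macrophages, but a C1q minimum had chosen only the other macrophages, and with the minimum set for both the log2 ratio of C1qa was -0.75.

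**Figure D3:**
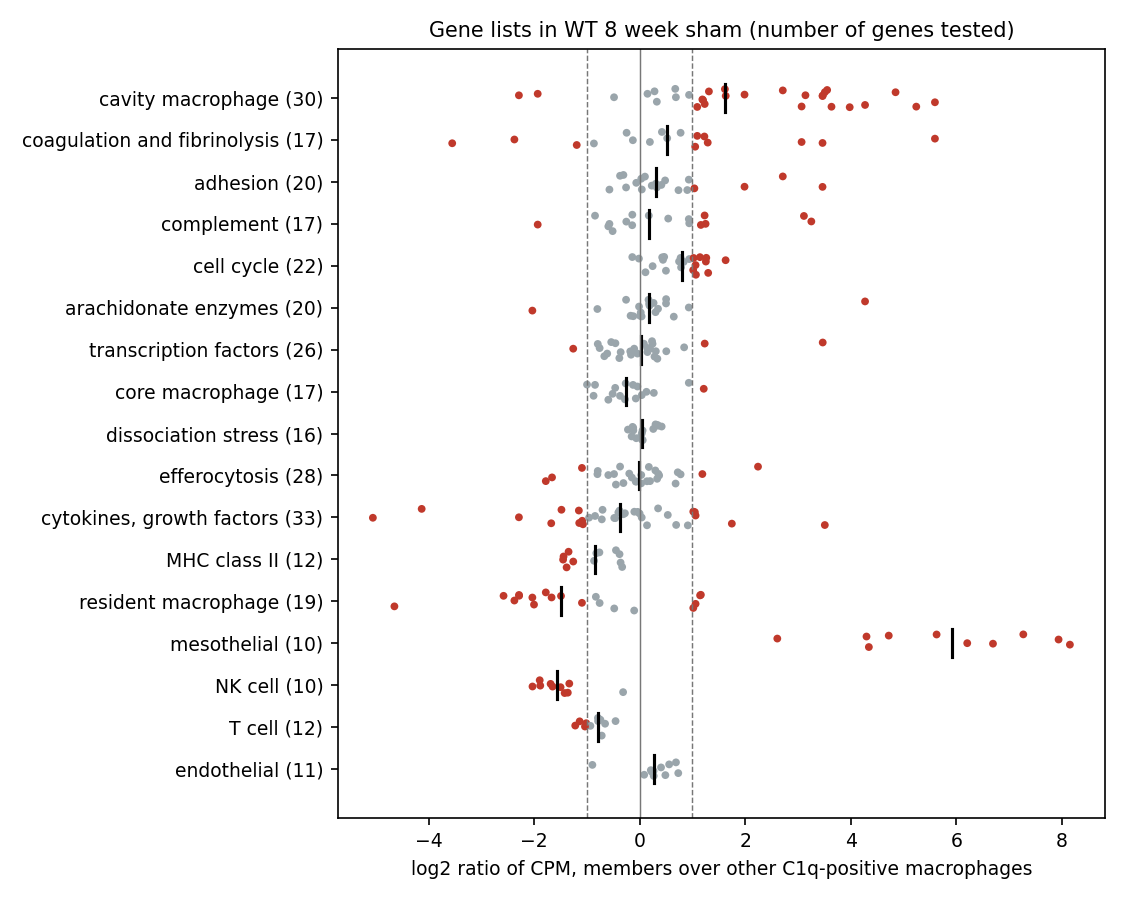
Log2 ratio of CPM, members over other C1q-positive macrophages in WT 8 week sham, for each tested gene (points) of 17 lists, with the median (black bar) and the 2-fold limits (dashed). The cavity list has 21 of 30 genes past 2-fold higher and the resident list 11 of 19 past 2-fold lower, while dissociation stress genes lie near 0.

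Signals that macrophages send were mixed in direction. Of 33 tested cytokines and growth factors, 5 were at least 2-fold higher and 9 lower. Il6 had 204 CPM in members and 60.6 CPM in other macrophages, and Cxcl1, a neutrophil attractant, 442 and 214 CPM. The attractants of monocytes were lower, with 65.2 CPM in members and 144 CPM in other macrophages for Ccl2, 20.8 and 66.8 CPM for Ccl7, and 4 and 196 UMIs for Ccl12. Il1b and Tnf were within 2-fold. Of 17 complement genes, 5 were higher, among them Cfp, properdin, with 738 CPM in members and 310.2 CPM in other macrophages, and 1, Vsig4, was lower. Among 28 tested genes of the uptake of dying cells, Marco (143 and 30.1 CPM) and Thbs1 (1635 and 717 CPM) were higher, and Axl (20.6 and 65.2 CPM), Gas6 and Stab1 were lower. Mertk itself had 60.8 CPM in members and 64.0 CPM in other macrophages. Marco was under 2-fold, at log2 0.65, where at least 10 Prg4 and Alox15 UMIs were asked of a member. Of 16 genes induced by tissue dissociation none was 2-fold apart, and their median log2 ratio was 0.04.

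Genes of the cell cycle were higher in the summed members, with 9 of 22 at least 2-fold higher and 0 lower. Ube2c, a mitotic ubiquitin-conjugating enzyme, had 162 CPM in members and 52.3 CPM in other macrophages, and Mki67 104 and 60.1 CPM. At 2000 UMIs per cell, 15.3% of members and 9.36% of other macrophages had at least 2 UMIs of the list, and 45.8% and 32.5% without thinning. With every cell that had 2 or more such UMIs left out, 0 of the list and 212 genes in all were 2-fold higher. The same list chose the cells left out, so its count of 0 checks nothing. The count ranged widely over the other alternatives: it was 1 against comparison cells chosen by C1q alone, 4 with a member minimum of 2 UMIs, 5 without cells holding UMIs of other lineages and 17 with a member minimum of 10.

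Transcripts of other cell types were found in both cell sets. At least 3 UMIs of the mesothelial list were found in 6 members, which together had 2705 CPM of Msln, 832 CPM of Prg4, 1 UMI of Alox15 and 0 of Serpinb2, Selp and Icam2. The summed level of the mesothelial list was 153 CPM in members and 2.93 CPM in other macrophages, and 0 of its genes were 2-fold higher with the cells that carry such transcripts left out. That list itself chose the cells left out, so its count of 0 checks nothing. The 6 members also held most Rarres2 and C3 UMIs. Rarres2, which encodes chemerin, had 67.3 CPM in members and 2.72 CPM in other macrophages, but 4.18 CPM in the other 424 members. Complement C3 had 226 and 26.1 CPM, and 63.9 CPM in those 424. Gata6, Serpinb2 and Ptgis did not depend on them, at 50.9, 568 and 156 CPM in the 424. At least 3 UMIs of Cd3d, Cd3e and Cd3g, the T cell markers, were seen in 12.6% of members and 17.2% of other macrophages, and at least 3 endothelial UMIs in 10.7% and 7.72%. At least 20 UMIs of the neutrophil genes S100a8 and S100a9 were seen in 8.84% of members and 10.9% of other macrophages, and at least 5 NK cell UMIs in 7.91% and 10.6%. The neutrophil list summed to 1511 CPM in members and 2193 CPM in other macrophages, and the endothelial list to 756 and 616 CPM, with none of the tested genes of either 2-fold apart. Of 9 tested fibroblast genes, 3 (Dcn, Lum and Pi16) were at least 2-fold higher in members, with Dcn at 178 CPM in members and 62.0 CPM in other macrophages. NK cell genes were lower in members, 9 of 10, with a summed level of 119.7 CPM against 299 CPM. Red cell genes were lower too, 4 of 4 tested, with a summed level of 3.29 CPM in members and 684 CPM in other macrophages. Of 8 tested cardiomyocyte genes, 7 were lower and 1 higher, with 21.4 CPM in members and 91.0 CPM in other macrophages. Xcl1, a chemokine of NK and T cells, had 5.21 CPM in members and 56.7 CPM in other macrophages, of which 1 cell held 41.3%. Of the alveolar macrophage list, 2 of 7 tested genes (Marco and Chil3) were at least 2-fold higher in members and 1 (Mrc1) lower, with a summed level of 868 CPM in members and 663 CPM in other macrophages. Its defining markers Fabp1 and Krt79 were at 0 UMIs in both sets, and Siglecf had 5 UMIs in members and 6 in other macrophages. With all cells left out that held T, NK, neutrophil, endothelial or mesothelial UMIs at these limits, which kept 296 members, 283 genes were higher and 220 lower, 184 and 132 of them shared with the full comparison, and 19 of the cavity genes were still 2-fold higher. How much such transcripts contribute to the other values was not tested.

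Among the members, those with the most Prg4 and Alox15 carried more of the cavity genes. The 430 cells were cut into tertiles by Prg4 and Alox15 CPM, which is a range and not a type: 19 and 20 cells lay within 10% of the upper and lower cut. Of 8813 genes tested in the highest against the lowest tertile, 255 (2.89%) were at least 2-fold higher and 568 (6.45%) lower, at similar median depths of 15588.5 and 15418 UMIs. Of the 30 cavity genes, 18 were higher and 2 lower. Serpinb2 had 1145 CPM in the highest, 418 in the middle and 128 in the lowest tertile, and Garnl3 121, 26.7 and 3.22 CPM. Gata6 had 89.9, 34.2 and 30.9 CPM, so that its middle and lowest tertiles were alike. MHC class II ran the other way, with 10 of 12 genes at least 2-fold lower in the highest tertile. Cd74 had 398, 2098 and 3353 CPM from the highest to the lowest tertile, although its median over single cells was only 51.2, 121 and 152 CPM, so the sums lay far above the middle cell. Lyve1 had 0 UMIs in the highest tertile and 40.2 CPM in the lowest. Cell cycle genes were higher in the highest tertile, 19 of 22, with a summed level of 1726 CPM against 319.9 CPM. The share of cells with 2 or more such UMIs differed far less, at 47.9% and 42.0%, and the median cell had 0 Mki67 UMIs in all tertiles. T cell and dendritic cell genes moved with the lowest tertile, with 8 of 9 and 8 of 9 lower in the highest tertile, and their part in the MHC class II values was not tested. Mesothelial genes did so too, with 10 of 10 tested lower in the highest tertile, at a summed 91.6 CPM against 314 CPM in the lowest. Cells with at least 3 mesothelial UMIs numbered 3 in the lowest, 2 in the middle and 1 in the highest tertile. What they add to the tertile values was not tested.

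**Figure D4:**
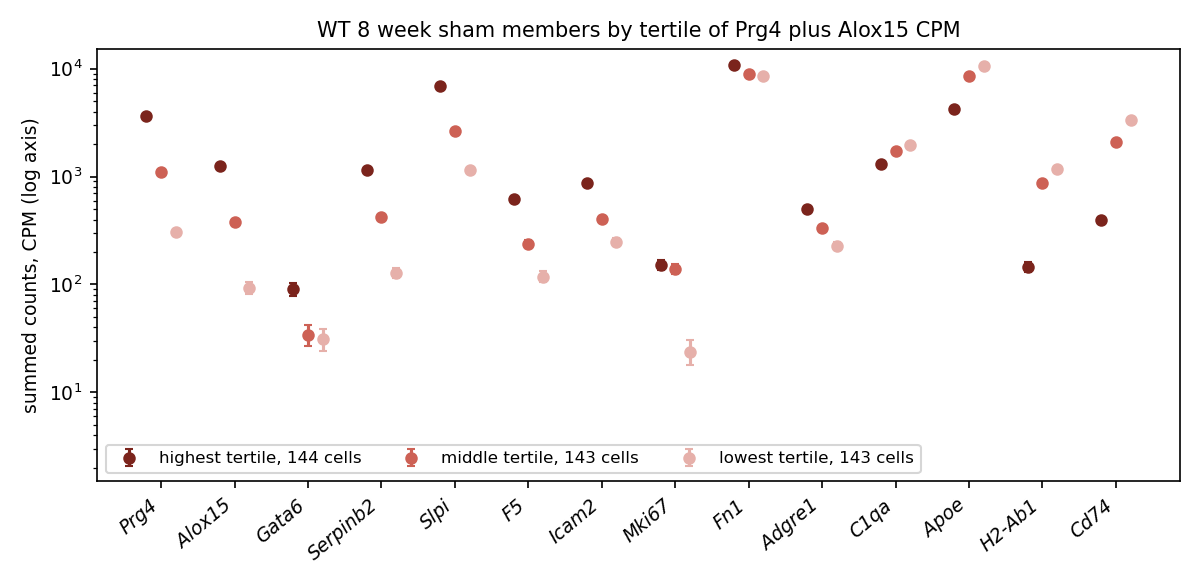
CPM of summed counts (log axis) in the members of WT 8 week sham cut into tertiles by their Prg4 plus Alox15 CPM, with exact 95% counting intervals. Serpinb2, Slpi, F5 and Icam2 step down from the highest to the lowest tertile and H2-Ab1 and Cd74 step up, while Fn1 changes little.

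The transcript that admitted a cell also marked a difference. Members with both genes had 60.6 CPM of Gata6 and 747 CPM of Serpinb2, and members with Prg4 alone 39.4 and 268 CPM. Members with Prg4 alone were shallower, at a median of 13774 UMIs against 16303.5, and had 1018 CPM of Prg4 against 2134 CPM. They also held 322 Msln UMIs, against 3 in members with both. How many of them missed Alox15 through depth was not tested. Icam2 was alike in the 2 classes, at 522 and 525 CPM. The 15 members with Alox15 alone had 1 Gata6 UMI, 5 Serpinb2 UMIs and 36.1 CPM of Icam2, and 2579 CPM of H2-Ab1. Other cavity genes were counted in them, with 3149 CPM of Saa3 and 17 UMIs (68.2 CPM) of Ptgis, against 582 and 8.78 CPM in the other macrophages. At the limit of the rule, the 32 members with 3 UMIs had 30.7 CPM of Gata6 and 73.3 CPM of Serpinb2, and the 36 cells just outside, with 2 UMIs, 12.7 and 49.0 CPM. The 540 other macrophages with 0 UMIs had 4.06 and 7.73 CPM, so the cells at the limit lay between. The limits on other genes also cost members: of 734 cells with at least 3 Prg4 and Alox15 UMIs, 144 failed on Csf1r and Adgre1, 107 on Col1a1 and 150 on Cd79a, 304 on any.

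Many cavity genes also stood apart in the 2 other libraries with at least 10 members. In MerTK KO P1 sham, 6509 genes were tested in 15 members against 162 other macrophages, and 7.11% were at least 2-fold higher and 15.3% lower. Of the 30 cavity genes 20 reached the 30 UMIs there, many through the members' UMIs alone, so only values are given. Vsig4 had 0 UMIs in members and 107 in the others. Serpinb2 had 188 UMIs (908 CPM) in members and 0 in the other macrophages, where 3 counts would be 1.68 CPM. Gata6 had 16 UMIs in members, in 6 of the 15 cells, and 0 in the others. F5 had 681 CPM in members and 7.29 CPM in the others, and Ptgis 227 and 1.68 CPM. Unlike in WT 8 week sham, Timd4 was among the higher genes here, with 56 UMIs (271 CPM) in members and 52 (29.2 CPM) in the others, in 10 of 15 and 28 of 162 cells. H2-Ab1 had 623 and 526 CPM, but only 2 of the 15 members held all its UMIs, against 33 of the 162 others with a UMI. One of the 15 cells carried mesothelial transcripts.

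The other P1 libraries had too few members for more than their UMIs. The 7 members of WT P1 MI replicate 1 had 24 Gata6, 424 Serpinb2 and 77 Timd4 UMIs, with Gata6 in 6 of 7 cells. The 4 members of replicate 2 had 4, 123 and 35 UMIs of these. Timd4 was at 434 and 561 CPM in them against 114 and 10.9 CPM in the other macrophages of the 2 libraries. Of the 3 members in MerTK KO P1 MI, 2 had mesothelial transcripts and none had an Alox15 UMI. The 2 members in WT P1 sham had 0 UMIs of Prg4, Gata6 and C1qa, and 6 of Alox15, so Gata6 and C1q did not mark them.

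In WT 8 week MI the members again differed from the other macrophages of their own library. Of 7301 genes tested in 46 against 1410 cells, 13.3% were at least 2-fold higher and 13.9% lower, where the members' sum was only 153408 UMIs. Here too 20 of the 30 cavity genes reached 30 UMIs, and the summed level of all 30 was 52976 CPM in members and 5495 CPM in the others. Most of the members' sum came from Slpi (18774 CPM), Saa3 (14341 CPM), Fn1 (7366 CPM) and Thbs1 (4446 CPM), so it says little of the rest of the list. Gata6 was under that count, with 6 UMIs (39.1 CPM) in members and 7 (1.82 CPM) in the others. Serpinb2 had 932 CPM in members and 30.6 CPM in the others, Icam2 502 and 36.4 CPM, and F10 437 and 42.3 CPM. Of 17 arachidonate enzymes tested, 4 were higher in members and 4 lower, or 3 lower with a gene at 0 UMIs set to 3 counts, with 254 CPM of Ptgs1 in members and 47.0 CPM in the others, and 84.7 and 15.8 CPM of Alox5. The cell cycle list summed to 430.2 CPM in members and 876 CPM in the others. None of the 46 held UMIs of the T, NK, neutrophil, endothelial or mesothelial lists at the limits used, which allows up to 7.71%. These limits are fixed UMI counts and harder to reach here, at a median of 3268.5 UMIs against 15284.5 in sham members. In this shallow library the limit of 3 UMIs left out like cells: Serpinb2 was at 764 CPM in the 13 members with 3 UMIs and at 552 and 574 CPM in the 25 and 37 cells just outside with 2 and 1 UMIs, against 14.4 CPM in 1361 macrophages with none.

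**Figure D5:**
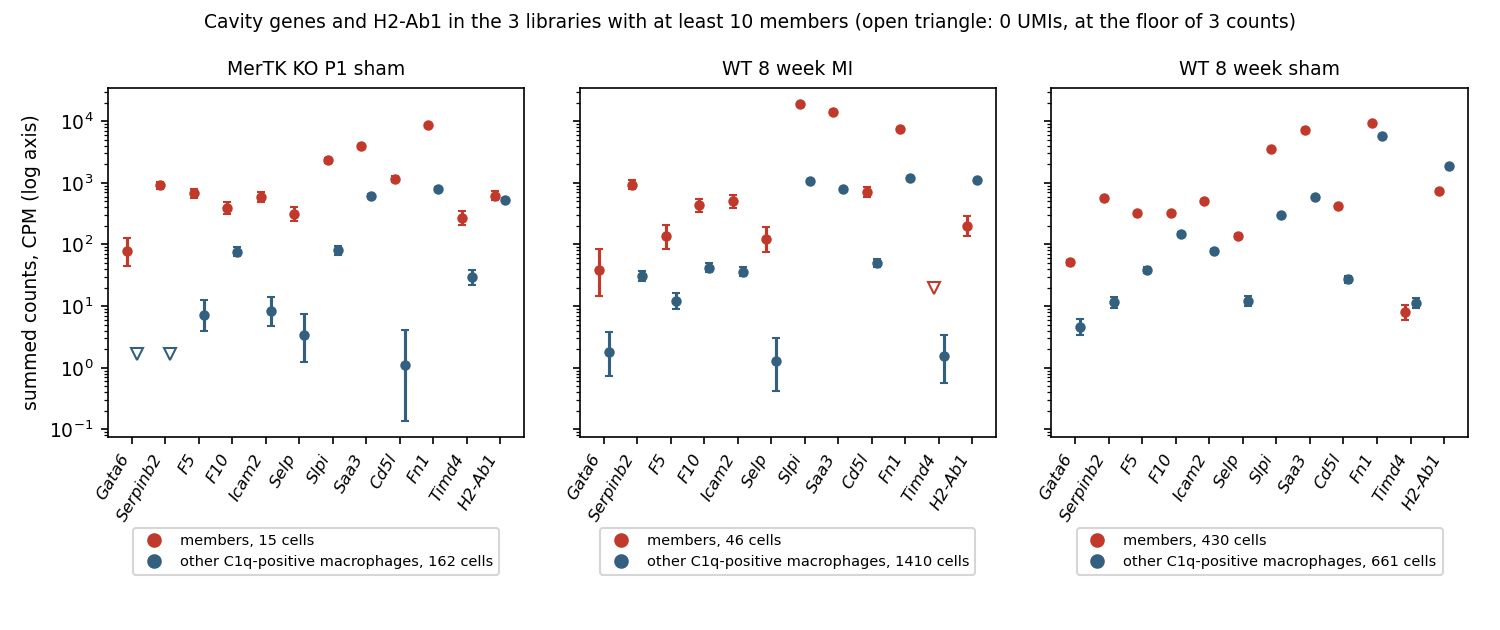
CPM of summed counts (log axis) of 11 cavity genes and H2-Ab1 in members and other C1q-positive macrophages of the 3 libraries with at least 10 members; bars are exact 95% counting intervals and open triangles mark 0 UMIs at the floor of 3 counts. Serpinb2, F5, Icam2, Slpi and Cd5l lie higher in members in all 3 libraries, and Timd4 in MerTK KO P1 sham only.

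Members of WT 8 week MI were last set beside members of WT 8 week sham. Some cavity genes differed little in level and others more. Gata6, counted with only 6 UMIs in MI members, had 39.1 CPM in MI members and 51.4 CPM in sham members (log2 -0.28, -1.85 to 0.74), Icam2 502 and 507 CPM, and Selp 124 and 137 CPM. Of 9731 genes tested, 12.7% were at least 2-fold higher in MI members and 24.7% lower, with a median log2 ratio of -0.21, and ratios are best read against that shift. Of the 30 cavity genes, 6 were at least 2-fold higher and 3 lower. Ltbp1 had 117 CPM in MI members and 49.4 CPM in sham members, Vsig4 91.3 and 14.5 CPM, and Thbs1 4446 and 1635 CPM, while Serpinb2 had 932 and 559 CPM. Vsig4 was counted with only 14 UMIs in MI members, in few cells. Of the members deep enough for thinning, 4.76% of 42 in MI and 3.05% of 426 in sham held Vsig4 at full depth. In the other macrophages of the same libraries, where 7.47% of 10650 genes were higher and 27.5% lower, 2 and 15 of 27 cavity genes were. The difference between these 2 contrasts was not tested.

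Transcripts of genes that regulate clotting and its dissolution stood higher in MI members, 7 of 13 genes tested, and 1 lower. F3 had 261 CPM in MI members and 46.8 CPM in sham members (log2 2.49, 1.97 to 2.95), and Plaur, the urokinase receptor, 769 and 199 CPM. In the other macrophages, 4 of 16 were higher and 5 lower. The lower gene in MI members was F5, with 137 CPM in MI members and 323 CPM in sham members. Chemokines differed in MI members and in the other macrophages alike. MI and sham members had 1362 and 20.8 CPM of Ccl7, 652 and 65.2 CPM of Ccl2, and 6864 and 1473 CPM of Ccl6, and the other macrophages 1465 and 66.8, 999 and 144, and 2828 and 1157 CPM of these in MI and sham. Of 29 cytokines and growth factors 13 were higher and 6 lower in MI members, and 13 of 32 higher and 7 lower in the other macrophages. Slpi had 18774 CPM in MI members and 3513 CPM in sham members, and 1078 and 299 CPM in the other macrophages. MHC class II genes were lower, 7 of 12, or 3 of 8 with genes at 0 UMIs set to 3 counts, and H2-Ab1 had 202 CPM in MI members and 736 CPM in sham members. Cell cycle genes were lower in 13 of 22, or 7 of 19 at that floor, and Mki67 had 0 UMIs in MI members, where 3 counts would be 19.6 CPM, and 104 CPM in sham members. In the other macrophages 7 cell cycle genes were higher and 2 lower, and 1 MHC class II gene was higher and 5 lower. Genes induced by dissociation were lower in MI members as well, 10 of 16, and 8 of 16 in the other macrophages. Other genes showed how far the 2 libraries stood apart in all their macrophages: Gm42418 had 163 CPM in MI members and 32010.3 CPM in sham members, with 223 and 30379 CPM in the other macrophages, and Spp1, osteopontin, 14660.3 and 1207 CPM with 14104 and 1311 CPM in the others. These 2 genes were chosen after their values were seen. Surgery, depth and the Cell Ranger version in the file headers (4.0.0 for the MI library, 6.1.0 for the sham library) differ together between the 2 libraries and cannot be told apart. Depth also bears on the choice of members. A limit of 3 UMIs asks a higher Prg4 and Alox15 level at the MI members' median of 3268.5 UMIs than at 15284.5 in sham. Among sham members, the highest and lowest tertiles of that level had 146 and 1179 CPM of H2-Ab1, and 6858 and 1145 CPM of Slpi. What this choice adds to the values was not tested.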

How the data were processed

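The study measured RNA of single cells in 7 heart libraries of 6 groups with the 10x Genomics 3' assay (v3 or v3.1), per the labels' protocols. The authors deposited raw UMI counts per gene and barcode, with Cell Ranger and mouse GRCm38 (mm10) named in the submitters' processing notes. Per the file headers Cell Ranger was version 6.1.0 for the WT 8 week sham library and the WT P1 MI library of replicate 2, and 4.0.0 for the other 5. The sources used here name no doublet filter. Counts near the 3' end say nothing of upstream exons.

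From these counts, a barcode was kept from 500 UMIs and 300 detected genes upward, unless mitochondrial transcripts made up more than 15% of it. Groups came from the sample titles. Raw counts were summed over the cells of a set and library and scaled to CPM. Ratios had 0.5 counts added to each sum, with exact conditional binomial 95% intervals, Poisson intervals for levels and Clopper-Pearson intervals for shares. UMIs are corrected for PCR copies, but these intervals still cover counting error only. A gene was tested where both sums held at least 30 UMIs together and counted where at least 2-fold apart. A sum of 0 was set to a floor of 3 counts where stated. Scrublet (scanpy 1.11.5) called 0 doublets in WT 8 week sham by its own threshold, so doublets stayed in, and removing the 1876 highest scores (0.8% per 1000 barcodes; 89 members) was an alternative. The others were limits on UMIs and mitochondrial share, member minimums of 2, 5 and 10 UMIs, other comparison cells, TMM scaling (edgeR 4.0.16 in R 4.3.3), the mean of single-cell CPM and no minimum count. Leaving out cells with mesothelial or other lineage UMIs, and comparing only Lyve1 and Folr2 macrophages, were chosen after seeing the data. The calculation was checked on simulated data. Python 3.11.15, numpy 2.4.6, scipy 1.17.1 and pandas 2.3.3 were used.

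Genes named were 11 set ones (Prg4, Alox15, Gata6, Csf1r, Adgre1, C1qa, Timd4, Lyve1, H2-Ab1, Ccr2, Mertk), the 14 with the largest and 12 with the smallest ratio where the higher sum reached 50 CPM, and examples of 31 gene lists. The members, lists and rules were chosen with earlier results of these data known. Gene positions are from GENCODE vM21.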

Additional observations from a re-analysis of the deposited data

How the results depend on the processing

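The counts of 387 higher and 289 lower genes in WT 8 week sham, each within 1.5 times of that in most alternatives, moved further in 3. With comparison cells chosen by C1q alone (1021 cells) 778 genes were lower. With no minimum count 2274 were higher and 2049 lower. Without cells that had 2 or more cell cycle UMIs 212 were higher. The member share of 2.81% became 2.41% and 1.90% with at least 5 and 10 UMIs, 2.54% with the highest Scrublet scores removed, 3.77% without cells with UMIs of other lineages and 1.60% with every cell thinned to 2000 UMIs. The mean share of WT P1 MI ran from 0.0395% to 0.906% with either library left out. Of the 26 genes named for their ratio, 25 stayed at least 2-fold apart in the same direction in all 15 alternatives, and Rarres2 did in 13 (lowest log2 0.62). Cavity genes 2-fold higher numbered 19 to 21, resident genes lower 11 to 13, and cell cycle genes higher 0 to 17. That 0 came where the cell cycle list itself chose the cells left out. MHC class II genes lower numbered 0 to 9, with 0 against the Lyve1 and Folr2 macrophages. Pf4 reversed there, to -0.30. In all, 1137 values stayed the same by the rules used, 388 moved and 1 reversed, and the causes were not tested. No paired analysis was possible because each group except WT P1 MI has 1 library. Depth limits the 46 MI members most: their sum of 153408 UMIs makes 3 counts equal to 19.6 CPM, against 0.411 CPM in the sham members.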

Other observations

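Some macrophage genes that are not cavity markers also set the members apart. Ednrb, the endothelin B receptor, had 277 CPM in the WT 8 week sham members and 37.7 CPM in the other macrophages (log2 2.87, 2.71 to 3.04). Integrin genes that pair with each other were both higher to some degree, with 691 CPM of Itgb1 in members and 369.8 CPM in other macrophages beside the Itga6 values. Apoe, an abundant lipid carrier of macrophages, was lower in members, with 7811 CPM and 15598 CPM. Of 12 tested retinoid genes 4 were at least 2-fold higher and 0 lower, among them Aldh1a2, which makes retinoic acid, with 75 and 45 UMIs. Mesothelial cells express retinoid genes too. The 6 members with mesothelial transcripts held 39 of the Aldh1a2 UMIs, and the other 424 members had 5.02 CPM of Aldh1a2, against 4.70 CPM in the other macrophages.

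The 414 cells of WT 8 week sham with Ly6c2 and Ccr2 transcripts and under 10 C1q UMIs gave a further reference. Serpinb2 was at 559 CPM in members and 21.0 CPM in these cells, Fn1 at 9414 and 477 CPM, and Adgre1 at 352 and 55.1 CPM. H2-Ab1 was at 736 CPM in members and at 4538 CPM in these cells.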
